A study of Mus musculus with 68 samples.

Results

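Basal expression that set CAST fibroblasts apart from those of the other 7 founder strains of the Collaborative Cross is described here. An autosomal gene was taken when every CAST control library lay above, or every one below, all control libraries of the other strains. Of the 12571 autosomal genes listed for the founders, 1506 met this rule, 701 with higher and 805 with lower values in CAST. Mouse embryonic fibroblasts (MEFs) came from A/J (A), C57BL/6J (B6), 129S1Sv/ImJ (129), NOD/ShiLtJ (NOD), NZO/H1LtJ (NZO), CAST/EiJ (CAST), PWK/PhJ (PWK) and WSB/EiJ (WSB) mice, and from 5 F1 crosses of B6 mothers with CAST, 129, NOD, NZO and WSB fathers (xCAST, x129, xNOD, xNZO and xWSB). Control cells received 0.1% DMSO for 4 h and treated cells 2 ug/ml of tunicamycin (TM) for 4 h. The rule used 2 CAST controls and 16 other founder controls, and the comparisons with other libraries used 2 CAST and 20 other founder TM libraries, 2 xCAST and 12 other F1 controls, and 14 F1 TM libraries. No strain carried a transgene or an engineered allele according to the labels. Per the study's methods, the MEFs of a genotype were pooled from female embryos of 1 litter. The replicates of a strain thus share 1 pool of cells, and strain, litter and culture cannot be told apart within the founders.

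CAST is an inbred strain derived from wild Mus musculus castaneus, PWK derives from Mus musculus musculus, and WSB was also founded from wild-caught mice. The other 5 are classical laboratory strains. Fibroblasts build and remodel the connective tissue matrix. They secrete collagens and the proteoglycans that space collagen fibrils, carry surface proteins such as Thy1, and divide readily in early culture. A first-generation cross holds 1 genome from each parent in the same nucleus. An allele that acts only on its own chromosome is expected to give a level near the mean of both parents.

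Each deposited value is a read count brought to a common library size with TMM factors, without division by gene length. Levels are therefore compared between libraries for 1 gene, and not between genes. Reads assigned to genes numbered 7091923 to 21530282 per founder control (median 14072068). Founder and F1 tables were scaled separately, so levels are compared within each set. The CAST controls resembled each other closely (Spearman rho 0.992 over autosomal genes), and among the founder controls replicate 1 of A stood apart, with a median rho of 0.95 to the other strains. Without that library 930 genes were higher and 962 lower by the same rule, which covers the genes counted with it, since taking away a library of another strain can only add genes.

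The count for CAST was among the 2 largest of the 8 strains. The 701 higher genes were 5.58% and the 805 lower genes 6.4% of the autosomal genes listed. With each other strain in the place of CAST, 1424 genes met the rule for PWK (3 control libraries), 887 for WSB, 725 for 129, 605 for B6, 473 for NZO, 457 for A (3 libraries) and 350 for NOD. A strain with 3 libraries has to meet a stricter rule. With any 2 of its 3 libraries, PWK had 1587 to 1988 such genes and A 655 to 778. PWK was the strain nearest to CAST in mean level for 203 of the 701 higher genes (29.0%) and for 242 of the 805 lower genes (30.1%), compared with 19.2% of all autosomal genes. These counts describe the libraries, and no test was made of them. With 1 CAST control in place of 2 the rule is looser, and without CAST control replicate 1 it found 1224 higher and 1319 lower genes, and without replicate 3 1179 and 1261.

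**Figure D1:**
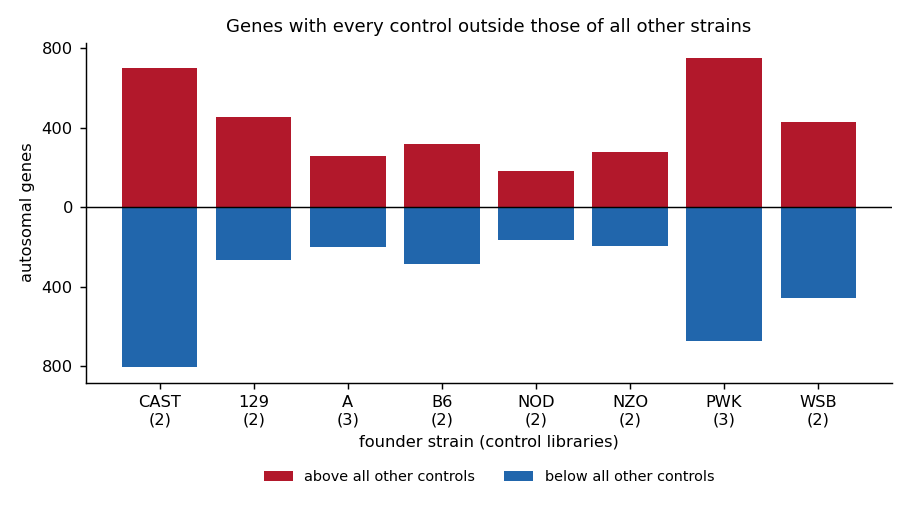
Number of autosomal genes (vertical axis) for which every control library of a strain lay above (red, upward) or below (blue, downward) the controls of all other founder strains. The number of control libraries of each strain is given in brackets, and CAST (701 above, 805 below) and PWK (751 above, 673 below) have the tallest bars.

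Most of the 1506 genes were separated by a narrow margin. In the contrast the rule had used, limma called 418 higher and 533 lower members (all genes, 5.58% and 7.79%), which is given as a description. The margin between the nearest CAST control and the nearest other control was at least 2 fold, on the scale of value + 0.1, for 50 of the higher and 74 of the lower genes. At the edge of the rule, Prr7 was counted as higher with CAST values of 19.52 and 12.69 against a highest other control of 12.68. Pigs was left out with 121.3 and 129.7 against 121.4. On the lower side Tcta was counted (24.65 and 26.11 against a lowest other control of 26.12), and Nucb1 was not (272.7 and 261.0 against 272.6). All 1506 genes passed the filter on low values. The higher side averaged under 2, where 1 library rests on few reads, for 50 of the higher and 56 of the lower genes. By annotation, 694 of the higher (99.0%) and 792 of the lower genes (98.4%) were protein coding, close to the 98.7% of all genes listed. The 19 autosomes each held members, from 9.22% of the listed genes on chromosome 17 to 14.6% on chromosome 16.

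Some neighbouring genes were members together. Ordered along the chromosomes, 265 members (17.6%) lay directly beside another member with the same direction among the genes listed. Of all genes listed, 5.58% were higher and 6.4% lower members, and a gene has a neighbour on each side. Part of the 17.6% is thus given by the number of members alone, and the excess was not tested. The share in runs was 15.2% for the genes set apart in PWK and between 6.0% and 10.6% for those of the other 6 strains, which had fewer such genes. Without control replicate 1 of A, 406 members lay in runs. The longest run held 5 genes that were higher in CAST on chromosome 3 (GRCm38, chr3:144729677-145153915): Clca3a1, Clca3a2, Clca3b, Clca4a and Odf2l. The first 4 belong to the family of calcium-activated chloride channel regulators. On chromosome 1 (chr1:133910304-134079120), Prelp, Fmod and Btg2 were all lower in CAST. Prelp and Fmod encode small leucine-rich proteoglycans that bind collagen.

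Promoters of these neighbours are printed here because their genes differed together in CAST. They are the B6 reference sequences of RefSeq (GRCm38.p6) from 250 bases before to 50 bases after the transcription start, on the strand of the gene, and differences of the CAST genome from them were not examined. Capitals mark matches on either strand to 3 motifs. The core of the TATA box, TATAAA, was found in 13.6% of all 32851 promoters of this length. The motif CCAAT was found in 37.4% of them, and the GC box, GGGCGG, in 35.7%. Clca3a1 (chr3:144760928-144761227, minus strand), Clca3b (chr3:144849253-144849552, minus strand), Prelp (chr1:133921352-133921651, minus strand) and Fmod (chr1:134037004-134037303, plus strand) read as follows.
Clca3a1: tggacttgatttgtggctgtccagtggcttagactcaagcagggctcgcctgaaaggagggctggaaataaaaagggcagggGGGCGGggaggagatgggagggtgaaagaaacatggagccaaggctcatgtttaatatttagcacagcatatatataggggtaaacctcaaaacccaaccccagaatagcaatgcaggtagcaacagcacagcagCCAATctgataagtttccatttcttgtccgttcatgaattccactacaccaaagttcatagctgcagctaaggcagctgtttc
Clca3b: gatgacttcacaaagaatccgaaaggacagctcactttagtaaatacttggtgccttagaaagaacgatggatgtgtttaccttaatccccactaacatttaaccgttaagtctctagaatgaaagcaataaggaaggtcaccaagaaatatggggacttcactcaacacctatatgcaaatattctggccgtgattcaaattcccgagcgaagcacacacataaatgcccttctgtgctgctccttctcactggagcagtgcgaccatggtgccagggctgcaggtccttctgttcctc
Prelp: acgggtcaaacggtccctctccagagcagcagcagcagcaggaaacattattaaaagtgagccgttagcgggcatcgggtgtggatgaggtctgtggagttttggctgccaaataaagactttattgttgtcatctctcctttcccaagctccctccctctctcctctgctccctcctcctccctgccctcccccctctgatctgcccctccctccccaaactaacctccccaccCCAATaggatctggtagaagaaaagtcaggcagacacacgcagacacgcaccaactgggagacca
Fmod: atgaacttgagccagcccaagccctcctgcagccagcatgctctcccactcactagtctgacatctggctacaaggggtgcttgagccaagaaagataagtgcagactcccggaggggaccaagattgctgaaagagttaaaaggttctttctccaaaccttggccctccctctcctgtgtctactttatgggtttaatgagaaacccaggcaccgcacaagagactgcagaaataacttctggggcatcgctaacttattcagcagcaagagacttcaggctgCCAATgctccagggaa
None of the 3 motifs was found in the Clca3b window. A CCAAT match was found in the windows of Clca3a1, Prelp and Fmod, a GGGCGG match in that of Clca3a1, and a TATAAA match in none of the 4.

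Among genes higher in CAST, Clca3b had the widest margin. Its CAST controls read 43.35 and 52.55, and the other 16 controls reached from 0 through a median of 0.378 to 0.861. Both CAST libraries were thus more than 40 units above every other library, and in xCAST controls the gene read 20.83 and 20.96 against at most 1.35 in the other F1 controls. Its neighbour Clca3a1 read 130.5 and 142.4 in CAST against 0.647, 9.22 and 16.2 (lowest, median, highest) in the other strains. In the cross Clca3a1 read 19.97 and 18.39, inside the range of the other F1 controls (5.69 to 27.1). Clca4a, the 4th of the cluster, read 5.70 and 4.78 against at most 0.608. The Clca genes resemble each other in sequence, so reads may have been shared among them in the counting.

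Connexins, which form gap junctions through which small molecules pass between cells, were also among the higher genes. Gja4, a connexin of blood vessel walls, read 18.59 and 15.90 in CAST against at most 5.87 in the other strains, and Gjb5 read 15.74 and 15.82 against at most 14.02. In the crosses, both xCAST controls lay above all other F1 controls for these genes. Gja4 there read 7.002 and 5.93 against at most 2.36, and Gjb5 16.96 and 15.28 against at most 5.595.

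Several higher genes are known mainly from other tissues. Prph, the intermediate filament protein of peripheral neurons, read 39.00 and 28.34 in CAST against at most 1.08. Snph, which anchors mitochondria in axons, read 17.71 and 18.12 against at most 2.33 in the other strains. In the F1 controls Snph read 9.43 and 10.5 in xCAST against 0.379, 1.10 and 37.08 in the other crosses, and it was not called. The 37.08 was the value of a lone xNZO control, which brought the xNZO mean to 12.84. The means of x129, xNOD and xWSB were 0.488, 1.26 and 2.09. In the F1 TM libraries Snph was called higher in xCAST (log2 difference 3.18, limma adjusted p = 2.98e-06). Tas1r1, a subunit of the umami taste receptor, read 11.86 and 11.53 against at most 1.53, and Fyb2, an adaptor of lymphocyte signalling, 8.39 and 8.48 against at most 2.53. Gzmd, one of the granzyme proteases, read 46.15 and 46.29 against 0.368, 2.52 and 12.76. Its chromosomal neighbours Gzmg and Gzmc were members as well, at under 2 units, and these genes are near-identical copies whose reads may have been divided between them. Tspan10, a tetraspanin of the cell surface, was detected at 4.87 and 5.27 in CAST and at 0 to 0.101 elsewhere. Slc1a6, a glutamate transporter of neurons, read 112.1 and 112.0 against 2.93, 25.2 and 50.3.

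Enzymes and regulators were also on the higher side. Retsat (retinol saturase) read 128.9 and 147.4 in CAST against 12.3, 19.9 and 43.5, so that CAST was 6.32-fold above the mean of the other strains on the scale of log2(value + 0.1). Ptgr1, which reduces prostaglandins and leukotriene B4, read 132.2 and 102.6 against 25.85, 34.82 and 49.86. Foxd1, a forkhead transcription factor of the kidney stroma, read 46.61 and 39.54 against at most 9.79. Asb4, an imprinted gene that is expressed from the maternal chromosome, read 6.37 and 6.43 against at most 1.64.

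On the lower side, Thy1 stood out. It encodes the surface glycoprotein CD90 by which fibroblasts are often recognised. The CAST controls read 2.18 and 2.80, and those of the other strains 99.9, 454 and 654 (lowest, median, highest). The strain means ranged from 103.9 in PWK and 258.7 in NZO to 570.7 in A, so CAST was 139-fold below the mean of the others on the scale of log2(value + 0.1). Fam213b, a synthase of prostamides, was next to undetected in CAST, at 0.0518 and 0.165, against 8.53, 11.89 and 29.09. Pon2, a paraoxonase of intracellular membranes, read 3.52 and 2.97 against 39.5, 55.7 and 82.3. For these 3 genes no other strain came within 3 units of CAST.

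**Figure D2:**
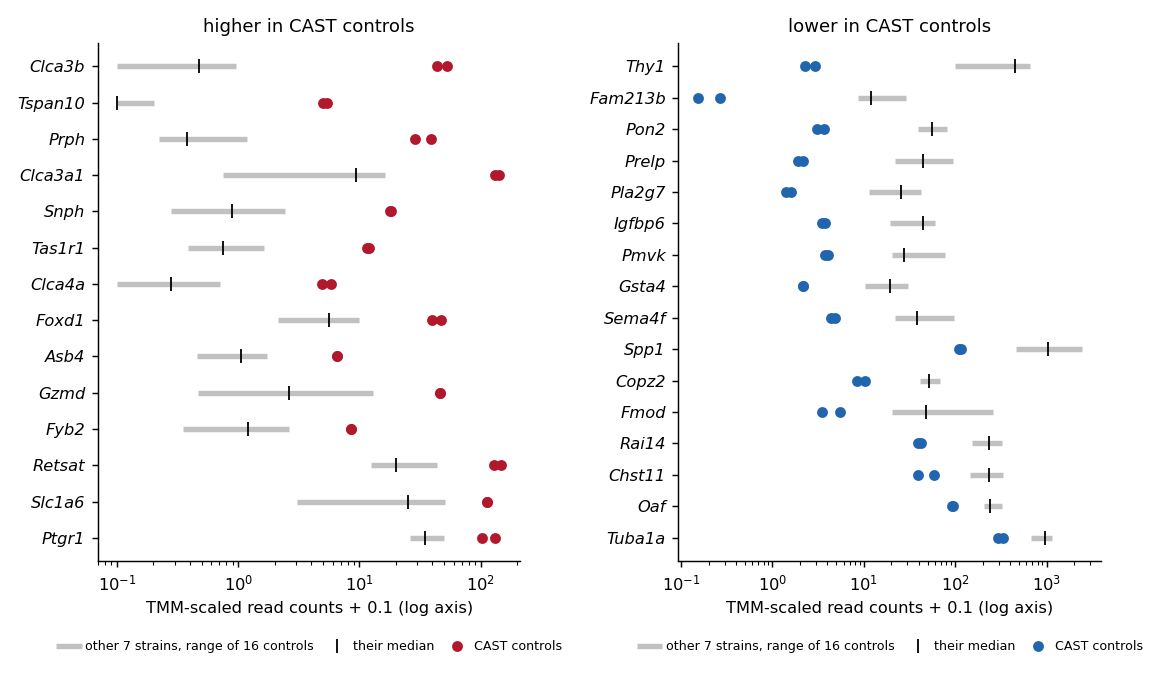
Values of 30 named genes, 14 higher (left) and 16 lower (right) in CAST, as TMM-scaled read counts + 0.1 on a log axis. Coloured points are the 2 CAST controls, grey bars span the 16 controls of the other strains and black ticks mark their median. The points lie outside the grey bar for every gene, as the rule requires, with the widest margins for Clca3b and Thy1.

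Matrix and secreted proteins among the named lower genes were Prelp, Fmod, Spp1 and Igfbp6. Prelp read 1.81 and 2.06 in CAST against 22.1, 43.9 and 94.8, and Fmod (fibromodulin) 3.37 and 5.35 against 20.4, 47.3 and 257.4, where the highest values were those of A. Spp1 (osteopontin) read 111.3 and 114.7 against 463.5, 1028 and 2440. Igfbp6, which binds insulin-like growth factor II, read 3.37 and 3.62 against 19.45, 44.59 and 59.71. Others act at the cell surface or in the Golgi. Sema4f, a membrane semaphorin, read 4.30 and 4.70 against 21.88, 37.86 and 98.21. Chst11, which sulfates chondroitin chains, read 39.10 and 57.99 against 144.2, 236.9 and 330.6.

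The named lower genes also included enzymes. Pla2g7, which hydrolyses platelet-activating factor, read 1.50 and 1.32 against 11.29, 25.57 and 41.78. Pmvk, a kinase of the mevalonate pathway, read 3.99 and 3.62 against 20.35, 27.61 and 77.75. Gsta4, which conjugates lipid peroxidation products to glutathione, read 2.07 and 2.06 against 10.15, 19.43 and 30.74. Genes of transport and the cytoskeleton included Copz2, a subunit of the COPI vesicle coat (10.20 and 8.24 against 40.6, 51.3 and 67.8), Rai14, an actin-associated protein (39.15 and 42.26 against 151.3, 231.7 and 329.3), and Tuba1a, an alpha-tubulin (291.3 and 332.7 against 670.5, 958.4 and 1149). Tuba1a has near-identical copies, and its value is uncertain for that reason. Oaf read 91.41 and 95.22 against 209.0, 238.9 and 322.9.

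The fibroblast label was compared with 18 fibroblast markers. Their summed level was 31750 and 34730 in the CAST controls and 22120 to 58000 in the others, so CAST lay within the range of the other strains. Col1a1 (8279 and 8092 in CAST against a median of 8102), Col3a1 (909.1 and 889.0 against 819.4) and Vim (8846 and 8128 against 7330) were near the median of the other strains. Other abundant markers were below it, such as Col1a2 (3330 and 3207 against a median of 5652), Col6a1 (239.5 and 252.7 against 489.7) and Pdgfra (9.22 and 7.25 against 20.26), though inside the range of the other controls. The median difference of the list was -0.69 on the log2 scale. Of the 18 markers, 7 were members on the lower side (6.4% of all autosomal genes were) and none on the higher side (5.58% of all). Besides Thy1 these were Pdgfrb, a receptor for platelet-derived growth factor (122.9 and 151.2 against a lowest other control of 167.5), Dcn (decorin, 4.14 and 3.38 against 9.52), Fap, a surface protease (0.104 and 0.412 against 0.647), Prrx1, a mesenchymal transcription factor (41.95 and 55.44 against 73.34), Postn (periostin, 136.4 and 149.6 against 162.9) and S100a4 (803.1 and 694.1 against 838.0). For 8 lists of markers of other cell types, 2 myeloid markers (Cd68 was 1 of them) and Col2a1 were members on the higher side and the endothelial Cdh5 on the lower side. The summed level of CAST lay within the range of the other founder controls for the myeloid list (35.4 and 37.9 against 10.2 to 74.0), for which 12 of 14 genes were listed, and likewise for the endothelial (7 of 9 listed, 11.3 and 13.3 against 5.48 to 35.7), epithelial (6 of 10, 43.4 and 53.3 against 33.7 to 133.5), skeletal muscle (6 of 17, 22.7 and 26.2 against 20.2 to 175.8), neural (11 of 15, 287.2 and 340.2 against 250.7 to 2016), adipocyte (7 of 8, 45.4 and 49.2 against 20.5 to 1070) and mesothelial lists (6 of 6, 19.4 and 27.3 against 16.3 to 115.3). Cdh5 and Emcn (endothelial), Krt14 and Cldn4 (epithelial), Adipoq, Plin1 and Cidec (adipocyte), Adgre1 (myeloid), Tnnt1 (muscle) and Elavl4 (neural) were under 0.5 in both CAST controls. The sum over the chondrocyte list, 635.7 and 638.2 in CAST against 65.5 to 700.3, was mostly Col2a1 (615.2 and 609.6 against 39.9 to 575.7), a member. In the crosses this sum averaged 642.4 in xCAST against 22.8 to 139.7 in the other F1 controls. The mean sum of xCAST was also outside the other F1 controls for the fibroblast (35630 against 22080 to 34880), skeletal muscle (14.27, below all of them, which reached up to 344.4) and neural lists (272.0 against 319.3 to 743.9), and within their range for the other 5 lists. In bulk RNA, fewer cells of a type and less RNA per cell cannot be told apart, and the part that a different mix of cells plays in the differences was not tested.

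Among collagens and matrix proteins, 14 of 59 measured genes were lower and none higher by the rule, against 6.4% and 5.58% of all autosomal genes, and without control replicate 1 of A 1 gene was higher. The median difference of the list was -0.50 on the log2 scale against -0.00 for all genes tested. Tnc (tenascin C), a matrix protein of remodelling tissue, read 987.3 and 1243 against 1539, 4802 and 8381. Fbln2 (fibulin 2) read 1316 and 1577 against 3137, 4274 and 5600. Col4a1 and Col4a2, the paired chains of basement membrane collagen, read 1223 and 1280 against a lowest other control of 1479, and 788.0 and 768.3 against 1147. Col6a3, Eln (elastin), Sparc, Loxl3, Mfap5, Emilin1 and Aspn were the other members besides Dcn, Fmod and Postn. Of the matrix proteases and their inhibitors, Mmp2, a gelatinase, was higher (347.2 and 355.7 against 149.3, 193.8 and 307.3). Mmp19, Adamts2, Serpine2, Serpinf1 and Htra1 were lower.

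The list of DNA replication and mitosis genes went the other way. Of 31 measured genes, 19 were higher and none lower by the rule, against 5.58% and 6.4% of all autosomal genes, with a median difference of 0.61 on the log2 scale. Mcm4, a subunit of the replicative helicase, read 149.8 and 144.5 in CAST against 65.5, 85.0 and 99.1. Rrm1, the large subunit of ribonucleotide reductase, read 290.6 and 271.7 against 141.1, 191.7 and 238.7. Ccne1, the cyclin of entry into S phase, read 113.9 and 109.7 against 42.7, 66.7 and 97.7, and Ccnb1, a cyclin of mitosis, 112.6 and 117.3 against 49.4, 74.5 and 90.8. The differences were modest, between 0.36 and 1.03 on the log2 scale for the 19 genes, and 23 genes were outside without control replicate 1 of A. The other 12 genes overlapped with the other strains, among them Pcna (115.3 and 116.8 against 64.4 to 137.8) and E2f1 (62.7 and 56.5 against 42.8 to 97.3). Cell density and passage at harvest are not given per library, and the part of the growth state of the cultures was not tested.

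Of 68 growth factors and their binding proteins, 11 were lower and 4 higher, against 6.4% and 5.58% of all autosomal genes. Most were thus on neither side. Vegfa, the main growth factor of blood vessels, read 157.9 and 153.4 against 197.7, 418.7 and 901.5. Fgf7, which acts on epithelia, read 19.6 and 18.0 against 32.6, 56.0 and 93.3. Hgf, the ligand of Met, read 0.622 and 0.412 against 0.710, 4.41 and 14.4. The higher members were Vegfc, the growth factor of lymphatic vessels (27.9 and 25.7 against at most 16.4), Angpt1, the ligand of Tek (8.55 and 7.99 against at most 5.01), and the Wnt pathway modulators Dkk2 (29.9 and 32.5 against at most 26.0) and Dkk3 (100.6 and 100.2 against at most 78.4).

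Of 29 genes of cholesterol and fatty acid synthesis, 6 were lower and none higher, with the same shares of all genes for comparison. These were Pmvk, Fdps, Sqle, Lss, Msmo1 and the feedback regulator Insig1, of which all but Pmvk lay close to the other strains. Of 42 genes of glutathione metabolism and the NRF2 response, 4 were lower and 5 higher, against 6.4% and 5.58% of all genes. Gsta4, Gsta1, Gstm5 and Gstt1 were lower, while Gstp2 (6.27 and 5.93 against at most 4.40), Mgst2 (3.57 and 3.13 against at most 1.60), Gsr, Hmox1 and Srxn1 were higher. Gstp2 is a near copy of Gstp1, and its value is uncertain. Aldo-keto reductase Akr1b8 (160.3 and 146.2 against at most 78.2), the fatty acid hydroxylase Cyp4v3 (17.0 and 15.6 against at most 5.83) and the retinoic acid hydroxylase Cyp26b1 (36.6 and 37.9 against at most 28.3) were among 5 higher members of 42 genes for aldehyde, alcohol and xenobiotic metabolism, with 5.58% of all genes higher. Aldh1l1 was the 1 lower member.

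The remaining lists held between 0 and 6 members each, apart from the Zfp genes, and are to be read against 5.58% of all genes higher and 6.4% lower. Of 39 interferon-stimulated genes, Irf1, Gbp2 (13.98 and 12.85 against at most 7.70) and Samd9l (12.5 and 14.3 against at most 11.7) were higher and Irf7, Usp18 and Ddx58 (4.77 and 5.03 against a lowest of 11.1) were lower. No antigen presentation gene of 24 was a member. Among 35 genes of the unfolded protein response, which the study set out to induce, only Xbp1 (94.7 and 101.2 against a lowest of 101.5) and Atf3 (2.07 and 1.57 against 2.35) were members, both lower. Of 29 chemokines and cytokines Cxcl14 (6.37 and 8.32 against 26.3, 74.2 and 222.1) and Clcf1 were lower. Of 36 imprinted genes, H19 (28.8 and 27.0 against a lowest of 38.5), Cd81 and Dcn were lower and Mest (14.7 and 17.6 against at most 12.9), Asb4 and Zfp57 were higher. The contractile list held 3 lower members of 15 (Myl9, Ccn2 and Ankrd1), the complement list 2 higher (C1rl, Pros1) and 2 lower (C2, Cp) of 21, the positional list Hoxc5 and Hoxc10 higher and Tbx4 lower of 50, the senescence list 2 lower of 19 (Perp and Btg2), and the glycolysis list Slc2a1 and Hk1 higher and Eno3 lower of 23. Zfp genes, which encode zinc finger proteins that bind DNA, were counted with 24 higher and 7 lower of 316, and with 27 and 11 without control replicate 1 of A. Zfp160 (37.1 and 33.6 against at most 18.9), Zfp334 (51.8 and 56.3 against at most 38.9) and Zfp503 (95.5 and 94.6 against at most 78.1) were among the higher ones.

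**Figure D3:**
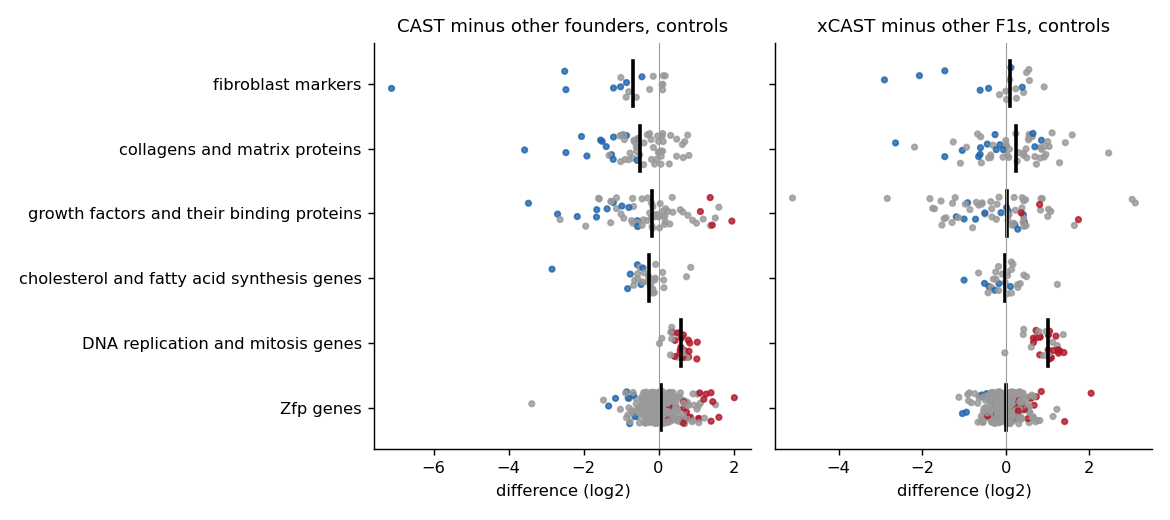
Differences in the controls on the log2 scale for 6 gene lists (rows), CAST minus the mean of the other founder strains (left) and xCAST minus the mean of the other F1 crosses (right). Each point is a gene, coloured red where it was higher and blue where it was lower in every CAST control, grey otherwise, and black bars are medians. The replication and mitosis genes lie to the right of 0 in both panels for the most part, and the median of the matrix list moves from -0.50 to 0.24.

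The TM libraries of the same cells, which the rule did not use, were then compared by strain with limma (adjusted p below 0.01 and at least 1.5 fold). Of the 700 higher members tested, 363 were called higher in CAST, or 51.9%, where 5.27% of all genes were. Of the 805 lower members 450 were called lower, or 55.9% against 7.11%. No member was called in the opposite direction. Both CAST TM libraries lay above all other TM libraries for 458 of the 701 higher members, as they did for 6.73% of all genes, and below them for 451 of the 805 lower members (6.16% of all genes). Thy1 read 1.38 and 1.92 in the CAST TM libraries against 65.99, 335.4 and 647.3 in the others (log2 difference -7.30, limma adjusted p = 7.84e-17). Clca3b read 52.9 and 54.1 against at most 1.76 (log2 difference 7.04, limma adjusted p = 7.74e-09). All 30 named genes passed the test in TM in the direction seen in controls. A higher gene can pass the filter on low values through the CAST or xCAST libraries alone, and its call then partly follows from the filter. Tspan10 did so, with at most 0.192 in the other TM libraries. How many other higher members did so was not counted. With the mean of each strain as the unit, limma called 0 genes higher and 5 lower in TM, all 5 of them members. At an unadjusted p below 0.05 and 1.5 fold, 522 genes were higher and 641 lower, of which 327 and 387 were members. The TM libraries are other libraries of the same pools of cells, so this is not a repeat with other animals. The counts rest on both CAST TM libraries, and without replicate 2 or replicate 3 they were 165 and 172 higher and 273 and 275 lower, with the lone sample assumed to vary like the other groups. Across 40 founder libraries, the CAST difference itself changed with TM for none of the 1506 members at a limma adjusted p below 0.01. At an unadjusted p below 0.05 it changed for 57 (3.78%), compared with 1.96% of all autosomal genes. The control values by which the members were picked enter this comparison. Both counts are therefore a description, and the 2 shares cannot be set against each other as a test.

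The cross of B6 with CAST came from other embryos and carries 1 CAST genome. In the F1 controls, 200 of 661 higher members tested were called higher in xCAST (30.3%, where 5.65% of all genes were), and 143 of 792 lower members were called lower (18.1% against 4.41%). In the opposite direction 2 higher and 24 lower members were called. The F1 TM libraries gave 268 of 660 (40.6% against 8.42%) and 174 of 792 (against 6.56%). Without xCAST control replicate 2 or 3, the counts in controls fell to 111 and 99 higher and to 81 and 79 lower members. Control replicate 3 of xNZO (median rho 0.933 to the other crosses) and the xWSB controls (0.949 to 0.962) stood apart from the other F1 controls. Without that xNZO library 215 higher and 162 lower members were called, and without xWSB 169 and 162. With the mean of each cross as the unit, where 1 cross stands against 4, no gene was called in either direction by limma. At an unadjusted p below 0.05 and 1.5 fold, 504 genes were higher and 417 lower in the xCAST controls, of which 135 and 123 were members. Called in the same direction in all 4 comparisons were 126 higher and 99 lower members. Of these comparisons, 1 is the contrast in the founder controls that the rule had used. Control and TM libraries of a genotype share a pool of cells. The 4 comparisons are thus not separate repeats, and no share of all genes is given for this count.

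Half-way levels were then computed from the parents. For each member called in the founder controls, the difference expected in the F1 was set from the mean of the B6 and CAST levels against the means of B6 with 129, NOD, NZO and WSB. Over 393 higher members the median expected difference was 0.59 and the median observed 0.73 on the log2 scale, and over 526 lower members the medians were -0.48 and -0.44. The observed value lay within 0.5 of the expected one for 267 of the 393 and 335 of the 526 genes. The median expected differences were about as large as this limit, so a gene with no difference in the F1 could be counted as well. These 2 counts therefore do not tell a level at the parental mean from no difference. The observed difference had the sign opposite to that in the founders for 16 and 100 genes.

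Named genes fell on several sides of the expectation. Clca3b was at 5.52 against 5.58 expected, Tspan10 at 3.86 against 4.29, Ptgr1 at 1.15 against 1.04 and Retsat at 2.28 against 1.91. Of the lower genes, Copz2 (-0.90 against -0.77) and Rai14 (-0.53 against -0.63) were close to it, and Fam213b (-0.74 against -1.13) differed less than expected. Pon2 read 29.98 and 31.51 in xCAST against 40.67, 46.85 and 50.68 in the other F1 controls, so the groups did not overlap, and its difference of -0.57 (limma adjusted p = 7.07e-04) was smaller than the -1.05 expected and just under 1.5 fold. Clca3a1 fell short, at 0.88 against 2.67.

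Thy1 and Pla2g7 were lower in xCAST than the parental mean. Thy1 read 62.15 and 52.02 in the xCAST controls against 243.1, 457.2 and 565.3 in the other F1 controls (log2 difference -2.91, limma adjusted p = 4.25e-09), where -0.83 was expected. Pla2g7 read 1.45 and 1.76 in xCAST against 3.23, 28.03 and 42.46, a difference of -3.45 (limma adjusted p = 4.25e-09) against -0.70 expected. The xWSB cross was the nearest for Pla2g7, with a mean of 3.77. Slc1a6 was on the other side, 2.50 (limma adjusted p = 3.17e-08) against 1.59. Whether these departures exceed their error was not tested, since the parents and crosses were scaled in separate tables.

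Some named genes that were low in CAST were not low in the cross. Fmod read 91.72 and 83.83 in xCAST against 30.89, 59.86 and 81.25 in the other F1 controls, so both libraries lay above all others (log2 difference 0.70, limma adjusted p = 2.74e-04). Sema4f read 25.87 and 23.82 against 5.65, 12.41 and 17.39 (1.18, limma adjusted p = 1.31e-05). Prelp read 74.19 and 64.18 against 12.74, 29.46 and 432.7, where the high values were those of xWSB with a mean of 389.7. Spp1 (490.4 and 519.2 against 207.8, 429.6 and 598.9) and Chst11 (180.1 and 192.3 against 97.9, 129.3 and 571.7) were within the range of the other crosses. For Chst11 the high values were those of xWSB, with a mean of 499.6 against 107.4 to 128.5 in x129, xNOD and xNZO. Of the 14 matrix members, Col4a2, Fbln2, Tnc, Postn, Dcn and Aspn were lower in xCAST with a limma adjusted p below 0.01, while Fmod, Loxl3 and Col6a3 were higher. No limit on fold was set here, and no share of all genes is given for it. Over the whole list of 59 matrix genes, with 1.5 fold required as well, 13 were called higher and 11 lower in the F1 controls. The shares of all genes were 5.65% and 4.41%. Both directions were thus above the share of all genes, and the median difference was 0.24.

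**Figure D4:**
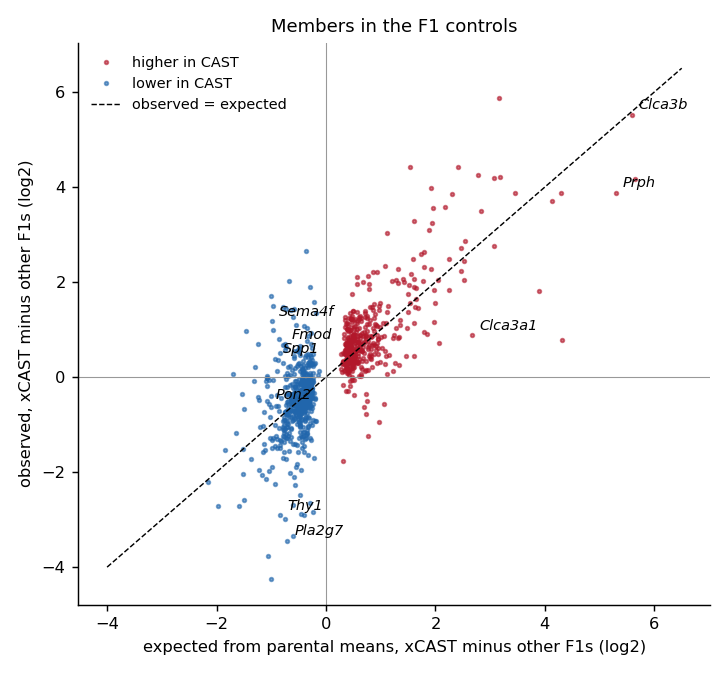
Difference between xCAST and the other F1 crosses in controls (vertical axis, log2) against the difference expected from the mean of parental levels (horizontal axis, log2) for 393 higher (red) and 526 lower (blue) members called in the founder controls. The dashed line marks equality. Clca3b (5.52 observed, 5.58 expected) lies on it, Thy1 and Pla2g7 lie below it, and Fmod and Sema4f lie above 0 although they were low in CAST.

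Replication and mitosis genes were higher in xCAST too. Of 31 genes, 26 were called higher in the F1 controls and none lower, against 5.65% and 4.41% of all genes, with a median difference of 1.02. In the xWSB cross these genes were low, with a mean Mcm4 of 24.8 against 56.1 to 59.7 in x129, xNOD and xNZO and 77.4 in xCAST. Without xWSB 16 of the 31 were called higher and none lower (5.62% and 5.11% of all genes), and the median was 0.61. Both xCAST controls lay above all other F1 controls for 27 of the 31 genes, where this held for 9.94% of all genes. Over all members, both xCAST controls were outside on the same side for 291 higher and 233 lower genes, against a background of 9.94% and 8.27%. In the founder TM libraries 9 of the 31 genes were called higher in CAST and none lower, against 5.27% and 7.11% of all genes, with a median of 0.54. The xWSB cross also weighed on named lower genes. Without it, Prelp (log2 difference 1.50, limma adjusted p = 7.23e-05) and Chst11 (0.64, limma adjusted p = 2.89e-04) were called higher in xCAST.

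**Figure D5:**
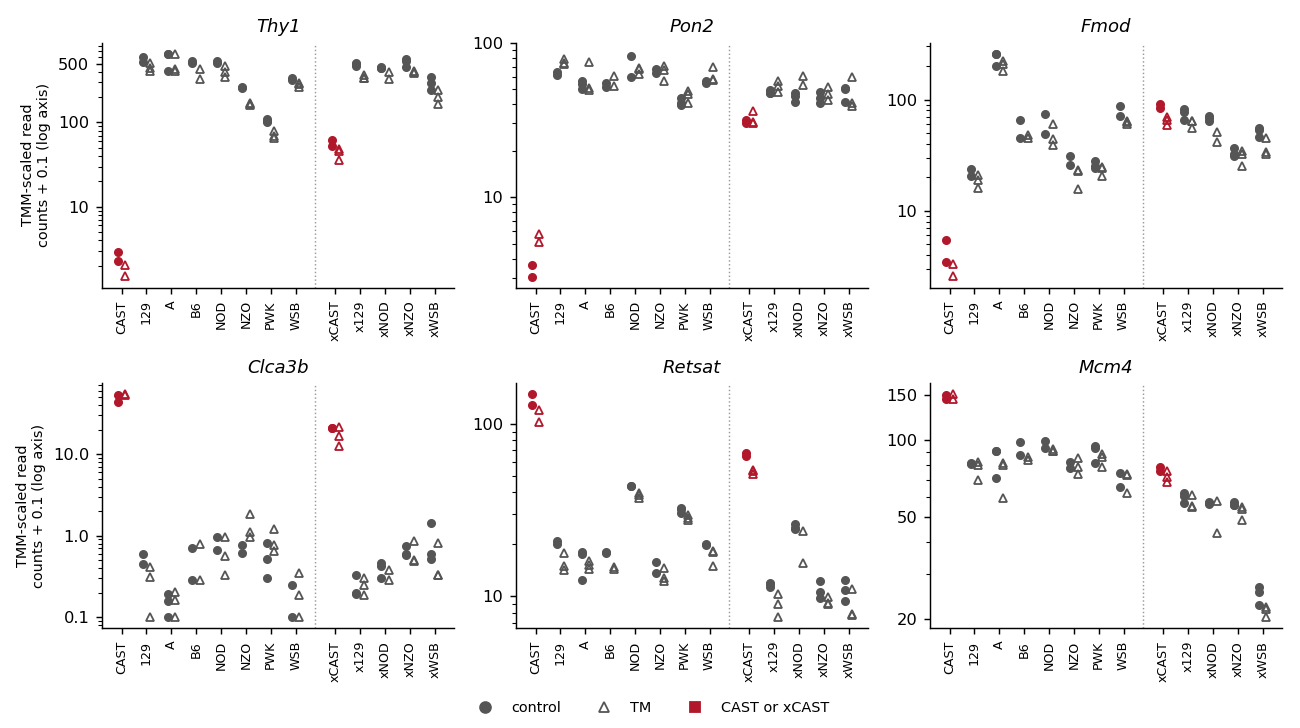
Values of 6 genes in all 68 libraries, as TMM-scaled read counts + 0.1 on a log axis. Circles are controls and triangles TM libraries, founder strains stand left and F1 crosses right of the dotted line, and CAST and xCAST are red. Thy1 and Clca3b in CAST are far from all other strains in both treatments, Fmod is low in CAST (3.37 and 5.35) but not in xCAST (91.72 and 83.83), and Mcm4 is highest in CAST.

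The strength of the statements differs between these comparisons. The spread between libraries of a strain is that of cultures from 1 pool after the authors had removed outlying libraries, and the p-values refer to it. With the mean of each strain as the unit, so that 1 CAST value stands against 7, limma called 1 gene higher and 9 lower in the controls. CAST reads were aligned to a CAST genome and those of xCAST to both parental genomes, and the part that alignment plays in the level of single genes was not tested.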

How the data were processed

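RNA of MEFs was sequenced in 68 libraries. According to the methods and processing notes, the authors aligned single-end reads to strain-specific genomes (GRCm38) with TopHat 1.4.1, scaled the libraries with TMM in edgeR, and removed outlying libraries. The deposited values, which are named FPKM, are a signal that rises in whole steps of fixed size within each library, whichever the gene. They are thus TMM-scaled read counts without division by length. The tests had been planned for FPKM and were kept, on log2(value + 0.1). F1 controls held 6442976 to 29528457 gene reads. Their tables also hold lines that name no gene (3 in all), which were left out. Symbols, positions and autosomes came from GENCODE (GRCm38), which held 13028 of 13197 founder gene IDs. The 169 others were not analysed here, and some genes that the naming rule selects are not reported here.

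Each strain or cross was compared with the mean of the others, genotypes weighted equally, with limma 3.58.1 (eBayes with trend, R 4.3.3), where 2 or more libraries reached 0.5. Calls required 1.5 fold and, after Benjamini-Hochberg adjustment, p below 0.01. The fits and the rule were tested on simulated data. Named genes are, per direction, the 12 with the widest margin among called members with a higher side of at least 5, and the 4 of the rest with the highest level and a margin of at least 2 fold, without predicted names. Members of the gene lists are named in their list, and neighbours of named genes with them, the latter and the examples from lists chosen after their values were seen. The members, lists and tests were chosen with earlier results of these data known. The alternatives included other pseudocounts, filters and scalings, genotype means as the unit, leaving out libraries, and edgeR 4.0.16 on recovered reads.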

Additional observations from a re-analysis of the deposited data

Results flagged for a closer look

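For 2 of the 30 named genes, every library of the cross moved opposite to the founder strain. Sema4f was lower in both CAST controls than in all other founder controls, and higher in both xCAST controls than in all other F1 controls, with a log2 difference of 1.18 in the F1 (limma adjusted p = 1.31e-05). Fmod did the same with a log2 difference of 0.70 in the F1 (limma adjusted p = 2.74e-04). The difference between founder and F1 was not tested itself, because the tables were scaled separately.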

How the results depend on the processing

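With genotype means as the unit (1 value for each strain or cross), limma called 1 gene higher and 9 lower in the CAST controls, 0 and 5 in CAST TM (0 and 5 members), and 0 and 0 genes and members in both F1 comparisons. At an unadjusted p below 0.05 with 1.5 fold these were 489 and 631, 522 and 641, 504 and 417, and 386 and 372 genes. Calls against each other strain in turn held for 82 higher and 167 lower genes. A margin of at least 1.5 fold left 114 higher and 157 lower genes outside and 24 members in runs of neighbours. Members in runs numbered 520 without PWK and 453 without A, the latter chosen after seeing the data, as were the values without xWSB and those of the lists without A control replicate 1.

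Leaving out each library in turn gave 301 to 854 higher and 530 to 1135 lower genes in the CAST controls, 243 to 717 and 430 to 968 in CAST TM (members 165 to 379 and 273 to 469), 317 to 818 and 257 to 621 in the xCAST controls (members 99 to 224 and 79 to 170), and 774 to 1081 and 587 to 852 in xCAST TM (members 220 to 279 and 149 to 183). The rule then found 705 to 1224 higher and 813 to 1319 lower genes, with 269 to 658 members in runs. The lowest counts of calls came without a CAST or xCAST library, where the lone sample left was assumed to vary like the other groups.

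The labels link libraries of different genotypes by a replicate number only, and whether same-numbered libraries shared a batch is not known. The correlation of deviations of same-numbered pairs was over 0.1 for 17 of 49 pairs in founder controls (median 0.039) and 32 of 70 in founder TM (0.08). It was so for 9 of 26 in F1 controls (0.086) and 14 of 26 in F1 TM (0.128, up to 0.716). The medians of differently numbered pairs were lower, at -0.029, -0.059, -0.039 and -0.092 in the same order. With the number as a replicate block, 743 genes were called higher and 965 lower in the CAST controls, 370 and 455 members in CAST TM, 189 and 148 in the xCAST controls and 280 and 186 in xCAST TM. edgeR on recovered reads called 895 genes higher and 882 lower in the CAST controls, where limma called 700 and 978, and 820 and 736 in CAST TM, where limma called 661 and 893. The TM counts of edgeR leave out PWK TM replicate 2 and WSB TM replicate 1, whose reads were not recovered. Other pseudocounts, filters and scalings kept every count within 1.5 fold. For genes under 2 units, few reads stand behind a value, and a difference of that size was not always detectable.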
